A study of Mus musculus with 12 samples.

Results

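Late-stage SOD1 G93A astrocyte material was compared with non-transgenic (NTg) material at 120 days on 6 of the 12 arrays of the series, the 3 labelled G93A at that age and the 3 labelled control. All probe sets of these 6 arrays were taken, and the other 6 arrays hold the same comparison at 90 days, the symptomatic stage. Each array carried RNA from 1 male mouse. In SOD1 G93A mice a transgene of human SOD1, bearing a mutation found in familial ALS, is expressed throughout the body. The line is B6SJL-Tg (SOD1 G93A) 1 Gur/J, bred for many generations to C57Bl/6 J Ola/Hsd, and the NTg mice were littermates without the transgene. No other allele or treatment is given for either group. Cells had been taken as astrocytes from sections of the lumbar spinal cord by laser capture microdissection, stained with toluidine blue per the labels and with an antibody to ALDH1L1 per the study's methods, and the material of a mouse was pooled and amplified linearly in more than 1 round before it was placed on an Affymetrix Mouse Genome 430 2.0 GeneChip. The transgene is active in neurons and microglia as well as in astrocytes, so the model does not separate the genotype of the astrocytes from that of their neighbours.

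In ALS spinal cord, astrocytes become reactive: they enlarge, raise intermediate filament proteins such as GFAP and secrete cytokines, protease inhibitors and complement factors. Microglia, the resident macrophages of the cord, multiply and take on a phagocytic state with high lysosomal and lipid-handling gene expression. Motor neurons and their synaptic inputs are lost over the same period, so late-stage ventral horn tissue differs from control tissue in its cells as well as in what each cell expresses.

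The labelled cell type was checked against markers of 13 cell classes. Of 25 astrocyte markers 24 exceeded the array median on 3 or more arrays and so were tested, among them Slc1a2, the main glutamate transporter of astrocytes (3299.0, 3157.9 and 2418.7 in NTg mice against 3127.1, 4071.4 and 3048.0 in SOD1 G93A mice) and Gja1, their gap junction protein (4747.8, 3107.6 and 3153.3 in NTg mice against 4760.5, 5438.3 and 5358.0 in SOD1 G93A mice). Markers of other cells passed the same filter, with 22 of 25 neuronal, 20 of 24 oligodendrocyte, 18 of 23 microglial and 19 of 24 motor neuron markers tested. Myelin basic protein, Mbp, had deposited signals between 11515.7 and 29553.1 on the 6 arrays, so the material holds RNA of cells other than astrocytes in both genotypes. Few markers of blood-borne cells passed: 1 of 16 lymphocyte markers, 1 of 15 markers of monocytes and neutrophils and 0 of 10 erythroid markers were tested, with Cd3e of T cells between 2.9 and 12.9. RNA present on fewer than 3 arrays cannot pass this filter. The untested erythroid genes Slc4a1 and Alas2 reached 422.2 and 128.5 in SOD1 G93A mice, against at most 13.1 and 4.4 in NTg mice. Another, Epb42, went the other way, with at most 7.4 against 29.5. Fold changes are therefore those of captured material, in which fewer cells of a type and less RNA per cell cannot be told apart.

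The arrays of SOD1 G93A mice were more spread out than those of NTg mice, with a median SD of a gene's normalized log2 signal of 0.39 in the former and 0.23 in the latter. Median deposited signals ran from 27.9 to 37.1 in NTg and from 38.8 to 55.2 in SOD1 G93A mice although all arrays had been scaled to a like mean, and quantile normalization within the age removed this difference. SOD1 G93A replicate 3 stood apart, with a mean Pearson's r of 0.833 over probe sets with the other SOD1 G93A arrays, against 0.880 and 0.879 for replicates 1 and 2. Mean r with the NTg arrays was 0.887, 0.872 and 0.749 for replicates 1, 2 and 3. Replicate 1 thus correlated slightly more with NTg arrays than with its own group, and the array furthest from the NTg arrays was replicate 3. That array also held collagen RNA: Col1a1, of fibrillar collagen, read 40.8, 28.9 and 28.7 in NTg mice against 43.3, 46.4 and 1018.8 in SOD1 G93A mice, and Col1a2, its partner chain, 197.8, 132.8 and 213.5 in NTg mice against 213.7, 207.6 and 1865.2 in SOD1 G93A mice, so the counts below are given without it where they differ.

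Of 26132 probe sets tested with limma, 1948 (7.45%) had a Benjamini-Hochberg adjusted p under 0.05 at 120 days, 940 (3.6%) higher and 1008 (3.86%) lower in SOD1 G93A mice. Taken as 1 probe set per gene, the brightest, 514 of 12458 genes (4.13%) rose and 555 (4.45%) fell, and these shares are the background for every list below. Passed or not, 44.8% of all genes had log2 fold changes above 0, which is the background for the counts of positive and negative values below. "Rose" and "fell" are used only for genes that passed this test. At a 2-fold change and an unadjusted p of at most 0.05, the thresholds of the study's methods, 1354 probe sets were higher (5.18%) and 1965 lower (7.52%). The 3 SOD1 G93A arrays lay wholly above the 3 NTg arrays for 1901 genes (15.3%) and wholly below for 2539 (20.4%). Rises reached further than falls. Among called genes 109 rose and 30 fell by 2 or more log2 units, and 32 rose and 0 fell by 3 or more. Genes that fell had been brighter in NTg mice, with a median normalized log2 signal of 8.33, than genes that rose, at 6.29 (7.08 over all genes). Part of that gap is built in, because the NTg signal enters the fold change by which genes were sorted. By the mean of the 6 arrays the medians were 7.70 for falls, 7.22 for rises and 7.03 for all genes. The balance of directions depended on scaling. Of all calls 48.3% were higher, against 56.9% with the values as deposited and 19.0% with median centring, which moved the median log2 fold change of all genes from -0.08 to -0.40, so list medians under centring are read relative to that. Without SOD1 G93A replicate 3 there were 655 higher and 446 lower probe sets, and without NTg replicate 2 there were 360 and 107, the fewest of any 1 array left out, with 400 and 194 without NTg replicate 3 and 589 and 452 without NTg replicate 1.

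**Figure D1:**
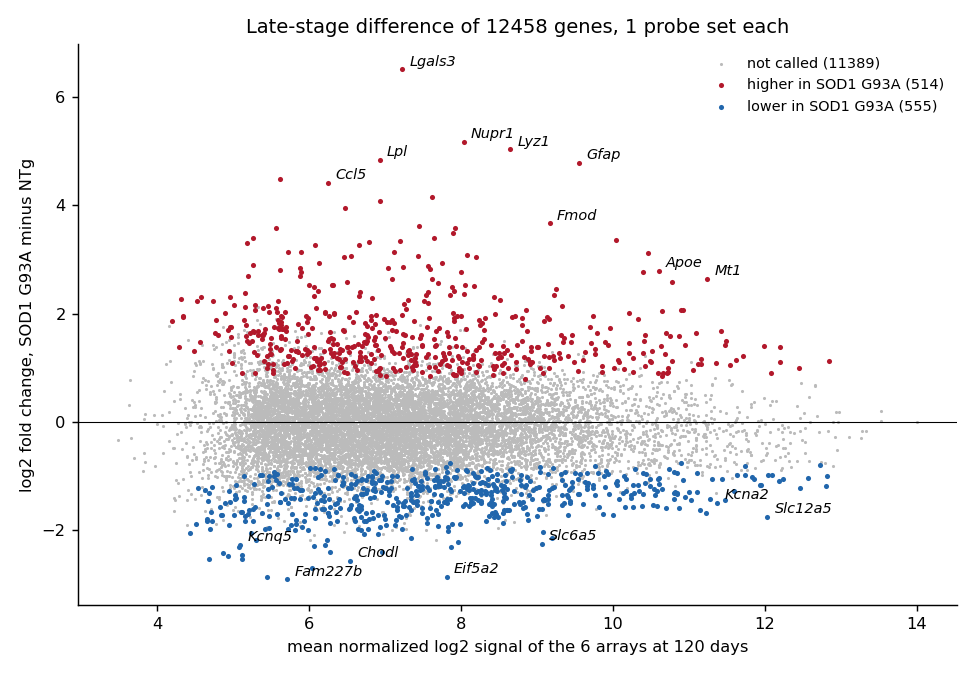
Log2 fold change at 120 days (SOD1 G93A minus NTg, vertical axis) against the mean normalized log2 signal of the 6 arrays (horizontal axis), 1 point for each of 12458 genes, with the 514 that rose in red and the 555 that fell in blue. The largest rise is 6.51 (Lgals3) and the largest fall -2.91 (Fam227b).

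**Figure D2:**
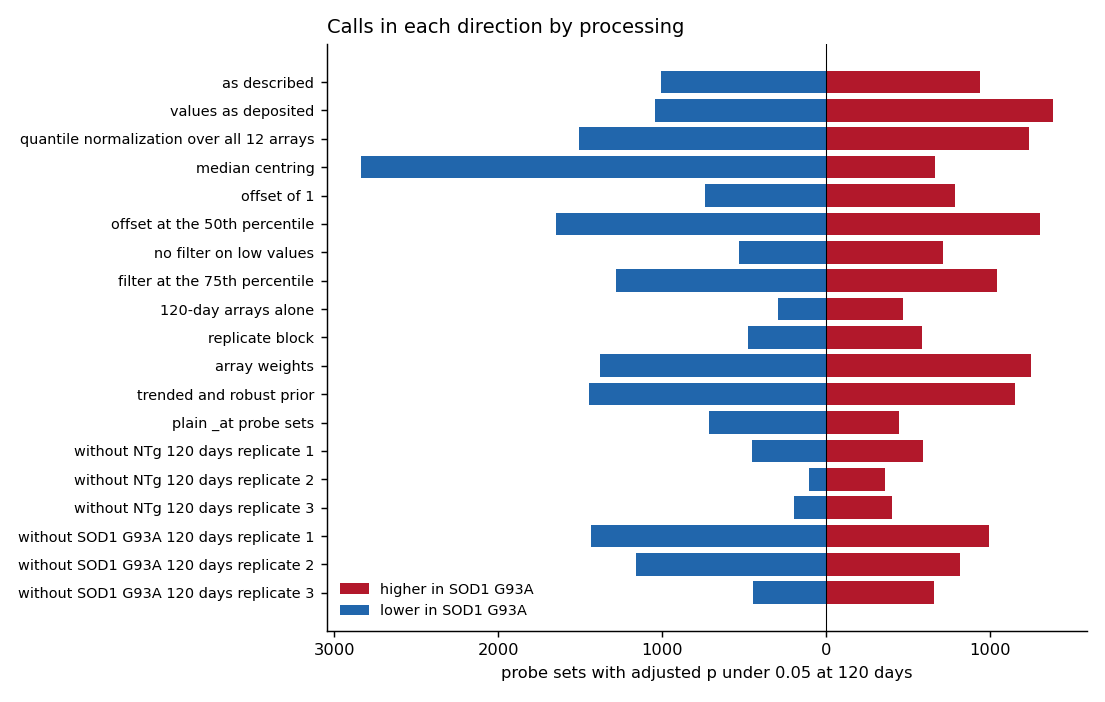
Number of probe sets with an adjusted p under 0.05 at 120 days, higher (red, to the right) and lower (blue, to the left) in SOD1 G93A mice, for the processing described and for each alternative. Calls fall to 360 and 107 without NTg replicate 2 and shift to 666 higher and 2834 lower with median centring.

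The largest rises included genes known from phagocytes, from reactive astrocytes and from stressed cells. They were ranked among called genes whose groups did not overlap, so that separation was set by the choice of genes. Lgals3, galectin 3, a lectin of activated phagocytes, had deposited signals of 18.6, 0.7 and 8.6 in NTg mice against 1040.9, 1861.9 and 1359.7 in SOD1 G93A mice. Its NTg values lie near the lower end of what the arrays measure, the 3 SOD1 G93A arrays were all above 1000, and the groups did not overlap (log2 fold change 6.51, standard error 0.57, adjusted p = 8.06e-05). Nupr1, a small nuclear protein induced by cell stress, read 27.7, 19.1 and 53.1 in NTg mice against 1064.4, 2107.8 and 1645.2 in SOD1 G93A mice (log2 fold change 5.18, standard error 0.62, adjusted p = 0.000511). Lyz1, a lysozyme, read 41.7, 51.0 and 90.3 in NTg mice against 2707.8, 2253.3 and 2118.5 in SOD1 G93A mice (log2 fold change 5.03, standard error 0.43, adjusted p = 6.89e-05). Neither gene overlapped between the groups, and Lyz1 was the more even of the pair in SOD1 G93A mice. Lpl, lipoprotein lipase, which frees fatty acids from circulating lipoproteins, read 50.5, 2.2 and 9.4 in NTg mice against 708.5, 910.2 and 347.6 in SOD1 G93A mice (log2 fold change 4.85, standard error 0.53, adjusted p = 0.000288). Gfap, the intermediate filament of astrocytes, read 109.2, 231.4 and 102.3 in NTg mice against 3989.5, 5365.1 and 3253.3 in SOD1 G93A mice (log2 fold change 4.79, standard error 0.46, adjusted p = 0.000123), and all 3 of its tested probe sets rose. A2m, the broad protease inhibitor alpha-2-macroglobulin, read 41.5, 18.5 and 45.8 in NTg mice against 962.9, 1249.1 and 392.8 in SOD1 G93A mice (log2 fold change 4.16, standard error 0.42, adjusted p = 0.000153). For A2m and Lpl replicate 3 was the lowest of the SOD1 G93A arrays yet above every NTg array. Ccl5, a chemokine, was the least even of these genes, at 3.5, 1.8 and 28.2 in NTg mice against 98.3, 657.2 and 483.6 in SOD1 G93A mice (log2 fold change 4.42, standard error 0.70, adjusted p = 0.00309), with replicate 1 well under the other two. Bcl3, a partner of NF-kB, rose by 3.59 (adjusted p = 0.000195) and Igfbp5, which binds insulin-like growth factors, by 3.59 (adjusted p = 0.000213). Since 7 was added to every signal before the logarithm, fold changes of genes this dim in NTg mice are pulled toward 0. Their size is uncertain in both directions, because signals near the floor are imprecise and ranking by size favours values that came out high.

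**Figure D3:**
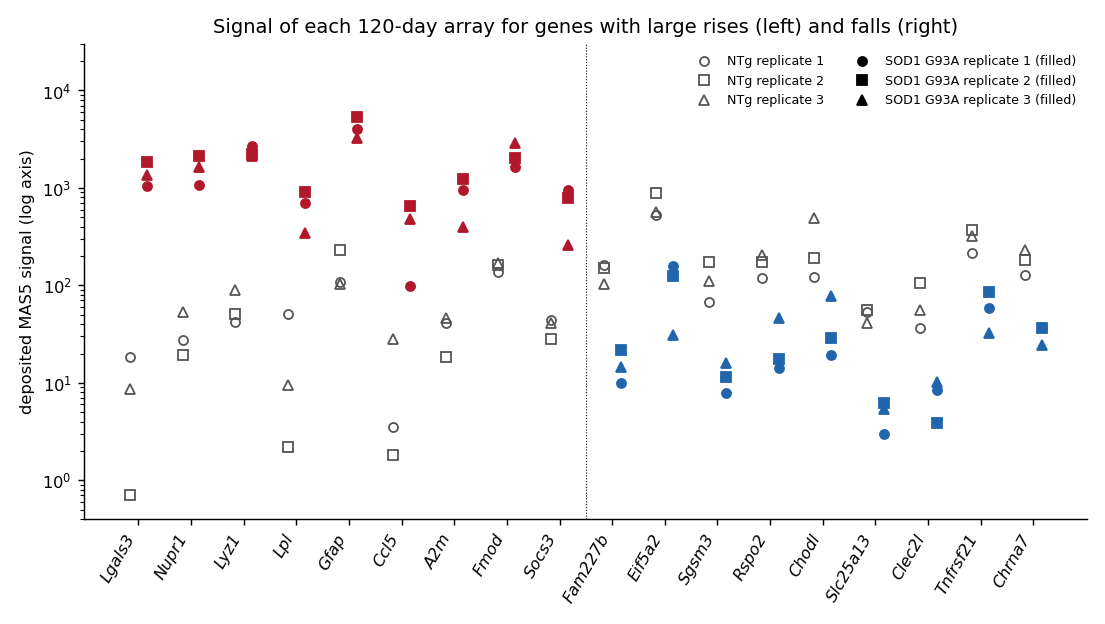
Deposited MAS5 signal (log axis) on each of the 6 arrays of 120 days for 9 genes with large rises (left of the dotted line) and 9 with large falls (right). Open grey symbols are NTg mice, filled symbols SOD1 G93A mice, and shapes give the replicate number, which the labels do not tie to pairs of mice. The groups do not overlap in any of the 18 genes, because large rises and falls were picked among genes with groups apart.

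The largest falls were smaller and mixed in function, and were likewise ranked among called genes whose groups did not overlap. Fam227b, a gene of little known function, read 163.1, 149.2 and 102.8 in NTg mice against 9.9, 21.6 and 14.6 in SOD1 G93A mice (log2 fold change -2.91, standard error 0.32, adjusted p = 0.000325). Sgsm3, a regulator of small GTPases, read 68.3, 174.7 and 110.0 in NTg mice against 7.9, 11.4 and 16.1 in SOD1 G93A mice (log2 fold change -2.86, standard error 0.36, adjusted p = 0.000651). Both fell to signals at which the offset weighs heavily, and neither overlapped between the groups. Rspo2, a secreted enhancer of Wnt signalling, read 120.1, 173.6 and 207.0 in NTg mice against 14.1, 17.4 and 46.3 in SOD1 G93A mice (log2 fold change -2.70, standard error 0.41, adjusted p = 0.00257). Chodl, a membrane protein known from fast motor neurons, read 121.6, 189.8 and 487.4 in NTg mice against 19.1, 29.1 and 77.0 in SOD1 G93A mice (log2 fold change -2.56, standard error 0.60, adjusted p = 0.0235), with NTg replicate 3 far above the other NTg mice. Eif5a2, a translation factor, read 529.9, 884.6 and 560.3 in NTg mice against 157.3, 125.0 and 31.3 in SOD1 G93A mice (log2 fold change -2.86, standard error 0.60, adjusted p = 0.0140), lowest on SOD1 G93A replicate 3. Chrna7, a nicotinic acetylcholine receptor subunit, read 126.7, 180.2 and 230.0 in NTg mice against 37.4, 36.3 and 24.4 in SOD1 G93A mice (log2 fold change -2.40, standard error 0.43, adjusted p = 0.00685). Tnfrsf21, a death receptor of neurons and glia, gave a log2 fold change of -2.41 (adjusted p = 0.00317), Slc25a13, a mitochondrial aspartate and glutamate carrier, one of -2.53 (adjusted p = 0.00162), and Trhr, the receptor of thyrotropin-releasing hormone, one of -2.28 (adjusted p = 0.0108). Chodl lost its call without NTg replicate 2 or 3 or SOD1 G93A replicate 1, Eif5a2 without NTg replicate 2 and with the 120-day arrays fitted alone, and Tnfrsf21 with unshared probe sets only (highest adjusted p = 0.549). Probe sets are called unshared here if their names end in _at with no letter mark before it. Trhr lost its call without NTg replicate 2 (highest adjusted p = 0.0725).

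Genes of the phagocytic state known as disease-associated microglia formed the list with the highest median. Of 35 tested members 25 rose and 0 fell, against 4.13% and 4.45% of all genes, with a median log2 fold change of 2.01 against -0.08 over all genes. Cst7, an inhibitor of lysosomal cathepsins, read 3.4, 2.6 and 1.4 in NTg mice against 258.6, 222.3 and 187.4 in SOD1 G93A mice (log2 fold change 4.49, standard error 0.29, adjusted p = 1.27e-05). It was near the floor in every NTg mouse and between 187.4 and 258.6 in SOD1 G93A mice. Apoe, the main lipid carrier of the brain, made by astrocytes and induced in microglia, read 667.7, 639.1 and 583.4 in NTg mice against 3753.3, 4441.7 and 5048.4 in SOD1 G93A mice (log2 fold change 2.79, standard error 0.24, adjusted p = 6.89e-05). Tyrobp, the signalling adaptor of TREM2, read 74.3, 59.1 and 44.6 in NTg mice against 712.0, 575.1 and 1031.7 in SOD1 G93A mice (log2 fold change 3.49, standard error 0.41, adjusted p = 0.000451). For both, every SOD1 G93A array was above every NTg array. Clec7a, the receptor dectin-1, rose by 3.07 (adjusted p = 0.000375), Itgax, an integrin of complement receptor 4, by 3.05 (adjusted p = 0.00200), Gpnmb, a glycoprotein of lipid-laden phagocytes, by 3.27 (adjusted p = 0.00108), and Ctsz, cathepsin Z, by 2.93 (adjusted p = 6.89e-05). Trem2 itself, a lipid-sensing receptor, read 5.2, 1.5 and 6.3 in NTg mice against 56.1, 23.2 and 17.3 in SOD1 G93A mice and rose by 1.39 (adjusted p = 0.0405), from NTg signals all under 7. Markers of resting microglia moved with this list: 6 of 18 tested rose and 0 fell, with a median of 0.73. The 6 include Trem2, so the 2 lists are not independent. The mean log2 signal of the 18 lay between 6.48 and 6.66 in NTg and between 7.45 and 7.61 in SOD1 G93A mice. Csf1r, the survival receptor of microglia, rose by 2.07 (adjusted p = 0.000511), Aif1 by 1.61 (adjusted p = 0.00208) and Fcrls by 2.88 (adjusted p = 6.89e-05), whereas the homeostatic receptor P2ry12 gave a log2 fold change of 0.70 (adjusted p = 0.117). Defining microglial markers were dim in NTg mice, P2ry12 between 9 and 15.4 and Tmem119 between 6 and 25.6. Without NTg replicate 2 the resting markers had 3 rises and without SOD1 G93A replicate 3 they had 5. What share of the list's rise goes with the amount of microglial RNA was not tested. Without SOD1 G93A replicate 3 the list had 26 rises of 35. Leaving out any 1 of the 6 arrays left 19 to 26. Trem2 lost its call without NTg replicate 1, 2 or 3 or SOD1 G93A replicate 1 or 2 and in 9 other alternatives (highest adjusted p = 0.159).

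Complement and phagocytic receptor genes had positive medians. Of 17 complement genes tested 7 rose and 0 fell, with a median of 0.69. The 3 chains of C1q, the recognition molecule of the classical pathway, rose by 2.64 (C1qa, adjusted p = 0.000123), 3.36 (C1qb, adjusted p = 0.000536) and 2.83 (C1qc, adjusted p = 9.94e-05). C1qb read 333.3, 347.3 and 339.0 in NTg mice against 3000.2, 3631.8 and 4272.7 in SOD1 G93A mice, with a narrow range in each group. Itgb2, the shared chain of leukocyte integrins, rose by 2.80 (adjusted p = 0.00383) and Serping1, the C1 inhibitor, by 1.54 (adjusted p = 0.0160). Of 37 phagocytic receptors and their signalling genes 12 rose and 0 fell, with a median of 0.84, and 33 of the 37 had positive log2 fold changes. The largest of these rises was Tyrobp, named above among disease-associated microglia genes. Lists share members, so the counts of different lists are not independent. Fcgr3 and Fcer1g, an antibody receptor and its signalling chain, rose by 2.11 (adjusted p = 0.00604) and 1.84 (adjusted p = 0.00685). Itgb5, an integrin chain that binds apoptotic cells through bridging proteins, rose by 2.14 (adjusted p = 0.00446) on all 4 of its tested probe sets. Left out singly, NTg replicates 1, 2 and 3 lowered the phagocytic count from 12 to 7, 6 and 5. Without SOD1 G93A replicate 3 the complement and phagocytic counts were 6 and 10. In the alternatives that keep all arrays, called the other settings below, the phagocytic count ran from 6 to 16. Serping1 lost its call without NTg replicate 2 or 3 and with the replicate number as a block (highest adjusted p = 0.0724).

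Reactive astrocyte genes had the next highest median, 1.76. Of 37 tested 20 rose and 0 fell. Vim, vimentin, an intermediate filament partner of GFAP, read 614.7, 444.7 and 586.1 in NTg mice against 3241.9, 4964.8 and 3142.7 in SOD1 G93A mice (log2 fold change 2.77, standard error 0.36, adjusted p = 0.000937). Serpina3n, a secreted serine protease inhibitor, read 95.9, 87.5 and 88.4 in NTg mice against 998.1, 1176.6 and 426.2 in SOD1 G93A mice (log2 fold change 3.05, standard error 0.40, adjusted p = 0.000878). Both were higher on every SOD1 G93A array, and Serpina3n was lowest there on replicate 3. S100a6, a calcium-binding protein, rose by 2.87 (adjusted p = 0.000277), Hspb1, a small heat shock protein, by 2.34 (adjusted p = 0.00226) and Ptx3, a secreted pattern recognition protein, by 2.07 (adjusted p = 0.0104). The count was 21 without SOD1 G93A replicate 3 and 15 to 21 with any 1 array left out. Astrocyte identity genes moved less. Of 24 tested 3 rose and 0 fell, with a median of 0.15. With median centring, which lowers all genes, that median was -0.22 but still 0.18 above the median of all genes. Without NTg replicate 2 the count was 1 and without SOD1 G93A replicate 3 it was 4. The 3 were Agt, angiotensinogen, at 1.90 (adjusted p = 0.00350), Aldh1l1, the folate enzyme that the antibody of the study's methods binds, at 1.22 (adjusted p = 0.00820), and Sox9, their transcription factor, at 1.53 (adjusted p = 0.0241). Slc1a2 gave a log2 fold change of 0.08 (95% confidence interval -0.44 to 0.60) and Gja1 one of 0.32 (-0.21 to 0.85), neither past the test. Gja1 turned negative with unshared probe sets, and Slc1a2 with median centring, under which the median of all genes was -0.40. Aqp4, the water channel of astrocyte endfeet, read 1252.5, 739.0 and 893.0 in NTg mice against 2412.8, 3680.7 and 504.4 in SOD1 G93A mice, with replicate 3 below all NTg arrays and the other two above them. Of 22 genes of astrocyte transport and junctions 0 rose and 0 fell, and 2 rose without SOD1 G93A replicate 3. Ptx3 lost its call without NTg replicate 3, Aldh1l1 without NTg replicate 2 and with median centring, and Sox9 without NTg replicate 2 or 3 or SOD1 G93A replicate 2 and with the 120-day arrays fitted alone and with the replicate number as a block (highest adjusted p = 0.120).

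Cytokine signalling through gp130 and STAT3, a known driver of astrocyte reactivity, was represented by receptors, ligands and a feedback inhibitor. Of 23 genes tested 6 rose and 1 fell, with a median of 0.38, and 5 rose and 0 fell without SOD1 G93A replicate 3. Socs3, the feedback inhibitor that STAT3 induces, read 43.8, 27.9 and 40.9 in NTg mice against 952.0, 786.3 and 260.7 in SOD1 G93A mice (log2 fold change 3.61, standard error 0.41, adjusted p = 0.000375), and all 3 of its probe sets rose. Osmr, the oncostatin M receptor, rose by 2.40 (adjusted p = 0.00117). Among ligands, Clcf1 rose by 2.90 (adjusted p = 0.00374) and Lif by 1.70 (adjusted p = 0.0128), and the LIF receptor, Lifr, fell by 1.49 on the log2 scale (adjusted p = 0.0189), from 1059.6, 1104.1 and 1481.7 in NTg mice against 381.5, 616.1 and 242.4 in SOD1 G93A mice. Stat3 itself gave a log2 fold change of 0.63 (adjusted p = 0.150). Csf2rb, the shared chain of receptors for GM-CSF and related cytokines, rose by 2.42 (adjusted p = 0.000195). Clcf1 lost its call with unshared probe sets only, Lif without NTg replicate 2 or 3, and Lifr without NTg replicate 2 or 3 or SOD1 G93A replicate 3 and with the 120-day arrays fitted alone (highest adjusted p = 0.572).

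The promoter of Socs3 holds a STAT element within 250 bases of its start. It is shown because Socs3 is among the 15 largest rises, and its match to TTCNNNGAA, which reads the same on both strands, is in capitals. The window lies at chr11:117969367-117969616 of GRCm38.p6 on the minus strand and is printed 5′ to 3′ up to the base before the RefSeq start.
Socs3: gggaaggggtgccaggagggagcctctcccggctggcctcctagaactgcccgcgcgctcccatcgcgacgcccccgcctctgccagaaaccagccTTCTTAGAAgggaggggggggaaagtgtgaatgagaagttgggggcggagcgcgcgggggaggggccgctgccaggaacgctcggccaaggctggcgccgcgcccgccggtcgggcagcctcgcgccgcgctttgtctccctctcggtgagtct
The match began 154 bases before the start. TTCNNNGAA was present in 8.3% of all 32851 RefSeq promoter windows of 300 bases (250 before and 50 after a start). It was in the windows of 42 of 407 genes that rose (10.3%) and 20 of 438 that fell (4.57%), of 10063 tested genes with a window (8.07%). Of 17 genes of the STAT3 and cytokine receptor list with a window, only Socs3 held it (5.88%). Of 29 reactive astrocyte genes with a window 6 did (20.7%), and of the 17 of these that passed 3 did (17.6%). The lists were chosen with earlier results known, so these shares describe the lists and not the arrays. In Gfap the letters straddle the start, and in Osmr and Bcl3 they were not found in this window, which says nothing of sites elsewhere.

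Genes of the integrated stress response, in which ATF4 and its partners answer amino acid shortage, protein folding stress and mitochondrial stress, were tested in a list of injury and stress genes. Of its 35 tested members 11 rose and 1 fell, with a median of 0.64. Cebpd, a transcription factor of acute injury, read 71.1, 79.6 and 94.3 in NTg mice against 1002.6, 1202.2 and 335.8 in SOD1 G93A mice (log2 fold change 3.08, standard error 0.36, adjusted p = 0.000446). Atf3, a factor induced in injured cells, read 25.4, 25.1 and 22.8 in NTg mice against 131.0, 166.0 and 136.4 in SOD1 G93A mice (log2 fold change 2.04, standard error 0.28, adjusted p = 0.00117). Atf3 was even within both groups, and Cebpd was lowest in SOD1 G93A mice on replicate 3. Ddit3, the pro-apoptotic factor CHOP, read 81.4, 68.0 and 116.5 in NTg mice against 302.8, 355.1 and 373.1 in SOD1 G93A mice (log2 fold change 1.92, standard error 0.30, adjusted p = 0.00293). Trib3, a pseudokinase induced by ATF4 and CHOP, rose by 2.53 (adjusted p = 0.000562) and Cebpb by 1.89 (adjusted p = 0.00308). Dnajb9, a chaperone of the endoplasmic reticulum induced by another branch of the unfolded protein response, fell by 1.28 on the log2 scale (adjusted p = 0.0405). Without SOD1 G93A replicate 3 the list had 8 rises and 0 falls, and leaving out NTg replicates 1, 2 and 3 or SOD1 G93A replicate 2 gave 7, 6, 6 and 7 rises. Across the other settings rises ran from 5 to 15. Dnajb9 lost its call without NTg replicate 1, 2 or 3 or SOD1 G93A replicate 3 and in 8 other alternatives (highest adjusted p = 0.160).

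Nupr1 and Atf3 carry the same letters of an amino acid response element at the same distance from their starts. They are shown because both rose and both answer ATF4. The element was searched as TGATGNAA on both strands, and capitals mark the match, here on the opposite strand. The windows lie at chr7:126625471-126625720 (Nupr1) and chr1:191183334-191183583 (Atf3) of GRCm38.p6, each on the minus strand, and run 5′ to 3′ up to the RefSeq start.
Nupr1: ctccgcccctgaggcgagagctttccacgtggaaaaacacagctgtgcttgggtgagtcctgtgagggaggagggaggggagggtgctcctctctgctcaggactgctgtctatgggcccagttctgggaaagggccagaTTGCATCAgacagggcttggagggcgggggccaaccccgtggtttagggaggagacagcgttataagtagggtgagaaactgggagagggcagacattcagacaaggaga
Atf3: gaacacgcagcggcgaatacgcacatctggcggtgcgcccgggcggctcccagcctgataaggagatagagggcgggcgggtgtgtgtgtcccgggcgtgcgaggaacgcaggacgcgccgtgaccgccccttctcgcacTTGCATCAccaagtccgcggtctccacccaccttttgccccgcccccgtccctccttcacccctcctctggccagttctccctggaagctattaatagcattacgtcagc
Each match began 110 bases before the start and read TTGCATCA. Trib3 held TTACATCA within the 50 bases after its start, no match was found in this window for Ddit3, and Cebpd had no window. TGATGNAA was in 3.97% of all promoter windows and 2.83% of tested genes with a window. It was in 17 of 407 genes that rose (4.18%) and 9 of 438 that fell (2.05%). Of the 30 stress genes with a window 7 held it (23.3%), and of the 10 of these that passed 3 did (30.0%). The list holds known responders of ATF4, so its share describes the list and not the arrays.

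Some growth arrest and cell division genes rose. Cdkn1a, the cyclin-dependent kinase inhibitor p21 and a p53 target, read 65.8, 107.8 and 94.7 in NTg mice against 581.2, 955.0 and 431.7 in SOD1 G93A mice (log2 fold change 2.78, standard error 0.31, adjusted p = 0.000375). Gadd45a, a stress sensor that p53 also induces, read 32.6, 45.4 and 23.2 in NTg mice against 190.3, 304.0 and 185.7 in SOD1 G93A mice (log2 fold change 2.39, standard error 0.33, adjusted p = 0.00135), and the groups were apart for both genes. Of 17 p53 and growth arrest genes 4 rose and 1 fell, with a median of 0.85, and the fall, of Zmat3, was kept only without SOD1 G93A replicate 2 when single arrays of this age were left out. Of 20 cell division genes 4 rose and 0 fell, with a median of 0.45. Ccnd1, cyclin D1, read 230.5, 223.9 and 221.4 in NTg mice against 796.2, 964.1 and 938.1 in SOD1 G93A mice (log2 fold change 2.07, standard error 0.25, adjusted p = 0.000551), with the 3 NTg mice nearly equal. Mki67, a protein of dividing nuclei, rose by 2.70 (adjusted p = 0.0102) and Mcm7, a replication helicase subunit, by 1.27 (adjusted p = 0.0110). The cell division count was 1 without NTg replicate 2, 2 without NTg replicate 3 and 5, with 2 falls, without SOD1 G93A replicate 1, and 3 without SOD1 G93A replicate 3. Over the other settings p53 rises ran from 2 to 7 and cell division rises from 3 to 7. Mki67 lost its call without NTg replicate 2 and with the 120-day arrays fitted alone, and Mcm7 without NTg replicate 2 or 3 and with median centring (highest adjusted p = 0.0885).

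Interferon-stimulated, antigen presentation and chemokine genes had positive medians with fewer calls. Of 36 interferon-stimulated genes 8 rose and 0 fell, with a median of 0.80 and 33 positive log2 fold changes. Irf8, a transcription factor of microglia that also answers interferon, rose most, by 2.84 (adjusted p = 0.000261). Rsad2, the antiviral protein viperin, read 128.0, 134.5 and 86.6 in NTg mice against 294.3, 539.3 and 491.3 in SOD1 G93A mice (log2 fold change 1.92, standard error 0.43, adjusted p = 0.0195). Cxcl10, a chemokine that draws T cells, read 18.6, 30.6 and 2.0 in NTg mice against 94.6, 312.2 and 104.6 in SOD1 G93A mice (log2 fold change 2.70, standard error 0.58, adjusted p = 0.0162), highest on SOD1 G93A replicate 2. Both genes were above the NTg range on all 3 SOD1 G93A arrays. Of 22 antigen presentation genes 5 rose and 0 fell (median 0.68), with Ctss, cathepsin S, at 1.90 (adjusted p = 0.00281) the steadiest and H2-Ab1, a class II chain, at 1.80 (adjusted p = 0.0300). Of 20 chemokines and receptors 5 rose and 0 fell (median 0.57, which turned negative with the filter at the 75th percentile). Ccl4 rose by 1.44 (adjusted p = 0.00936) and Ccl6 by 2.13 (adjusted p = 0.0205). Left out singly, NTg replicates 1, 2 and 3 gave 2, 1 and 1 antigen presentation calls and 3, 2 and 3 chemokine calls, and without SOD1 G93A replicate 1 the antigen presentation count was 3. Without SOD1 G93A replicate 3 each of these 2 lists had 4 rises. Across the other settings rises ran from 1 to 8 for antigen presentation, 2 to 7 for chemokines and 5 to 12 for interferon-stimulated genes. The interferon count depended on single arrays: it was 2 without SOD1 G93A replicate 3 and 4, 3 and 1 without NTg replicates 1, 2 and 3. Rsad2 lost its call without NTg replicate 2 or 3 or SOD1 G93A replicate 3, Cxcl10 without NTg replicate 3 and with the 120-day arrays fitted alone, and H2-Ab1 without NTg replicate 2 or 3 or SOD1 G93A replicate 1 and in 3 other alternatives (highest adjusted p = 0.120). Ccl4 lost its call without NTg replicate 2, and Ccl6 without NTg replicate 1 or 2 or SOD1 G93A replicate 2 and with the 120-day arrays fitted alone (highest adjusted p = 0.113).

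The windows of Cxcl10 and Rsad2 are shown because 17 of the 29 interferon-stimulated genes with a window (58.6%) hold the interferon response element. It was searched as GAAA, any 2 bases and GAAA, on either strand, and was in 3.57% of tested genes with a window and 3.44% of all windows. Genes are often put on such lists for their response to interferon, so the share describes the list and not the arrays. Of the 8 that rose 5 hold it, among all 407 that rose 23 (5.65%), and among 438 that fell 12 (2.74%). Capitals mark the element in windows at chr5:92348890-92349139 (Cxcl10) and chr12:26456453-26456702 (Rsad2) of GRCm38.p6, both on the minus strand.
Cxcl10: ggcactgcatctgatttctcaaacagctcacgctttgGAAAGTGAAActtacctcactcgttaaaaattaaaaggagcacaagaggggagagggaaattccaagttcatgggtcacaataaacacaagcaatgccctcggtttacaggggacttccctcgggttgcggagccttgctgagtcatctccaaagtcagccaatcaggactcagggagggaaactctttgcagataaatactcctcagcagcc
Rsad2: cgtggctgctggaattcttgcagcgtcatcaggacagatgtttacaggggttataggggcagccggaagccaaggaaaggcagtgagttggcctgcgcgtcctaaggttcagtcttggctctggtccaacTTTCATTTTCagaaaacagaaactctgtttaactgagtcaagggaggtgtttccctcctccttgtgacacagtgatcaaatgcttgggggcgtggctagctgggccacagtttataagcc
The matches began 213 and 120 bases before the start, the second on the opposite strand.

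Lysosomes degrade what phagocytes take up, at a low pH that a proton pump maintains. Of 59 lysosomal hydrolases and membrane proteins 16 rose and 1 fell, with a median of 0.23. With median centring that median was -0.10, still 0.30 above the median of all genes. Without SOD1 G93A replicate 3 there were 15 rises and 0 falls. Laptm5, a lysosomal membrane protein of blood cells and microglia, read 528.3, 499.8 and 497.2 in NTg mice against 4104.8, 3921.0 and 5437.0 in SOD1 G93A mice (log2 fold change 3.11, standard error 0.29, adjusted p = 0.000107). Grn, progranulin, a lysosomal regulator, read 1058.6, 847.3 and 1058.9 in NTg mice against 4591.6, 4198.9 and 3635.5 in SOD1 G93A mice (log2 fold change 2.08, standard error 0.25, adjusted p = 0.000511). Both were even within each group. Ctsd, cathepsin D, rose by 2.01 (adjusted p = 0.000448), Ctsh by 2.24 (adjusted p = 0.000651) and Hexa, a hexosaminidase chain, by 1.64 (adjusted p = 0.00102). Ids, which cleaves sulfate from heparan and dermatan sulfate, fell by 1.40 on the log2 scale (adjusted p = 0.0313) and was the 1 gene of the list to fall. Of 17 subunits of the vacuolar proton pump 0 rose and 2 fell, with a median of -0.61, and 13 had negative log2 fold changes. The 16 rises include cathepsins and Cd68 that microglia express strongly. The largest was Gpnmb, named above among disease-associated microglia genes, so these lists share members too. Of the resting microglia markers 6 of 18 rose, as given above, and their part in the lysosomal rises was not tested. The pump count was 0 without SOD1 G93A replicate 3 or any 1 NTg array, 4 without SOD1 G93A replicate 1 and 1 without SOD1 G93A replicate 2, and ran from 0 to 7 over the other settings, highest with median centring. Ids lost its call without NTg replicate 1, 2 or 3 or SOD1 G93A replicate 3 and in 4 other alternatives (highest adjusted p = 0.119).

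Enzymes that make cholesterol had a negative median. Of 18 tested 0 rose and 5 fell, with a median of -0.74, and 16 had negative log2 fold changes. Idi1, an early enzyme of isoprenoid synthesis, read 775.8, 906.0 and 780.3 in NTg mice against 218.7, 322.3 and 204.2 in SOD1 G93A mice (log2 fold change -1.59, standard error 0.26, adjusted p = 0.00374). Cyp51, which demethylates lanosterol, read 278.6, 387.6 and 403.1 in NTg mice against 133.6, 113.8 and 138.3 in SOD1 G93A mice (log2 fold change -1.35, standard error 0.28, adjusted p = 0.0133). The groups did not overlap for either enzyme. Hmgcs1, which makes HMG-CoA, read 4234.9, 3734.8 and 4691.9 in NTg mice against 2859.9, 2485.4 and 2653.2 in SOD1 G93A mice (log2 fold change -0.82, standard error 0.23, adjusted p = 0.0461) and lay near the threshold. Msmo1 and Hsd17b7, later enzymes, fell by 1.34 (adjusted p = 0.0367) and 1.42 (adjusted p = 0.0364) on the log2 scale, although with unshared probe sets Msmo1 had a log2 fold change of 0.11. Insig1, which holds the sterol sensor in the endoplasmic reticulum, gave a log2 fold change of -0.76 (adjusted p = 0.0664). Genes of sterol regulation, uptake and transport went both ways: of 29 tested 3 rose and 3 fell, with a median of 0.16 that was -0.26 with median centring, 0.13 above all genes, and also negative with all probe sets of a gene averaged. The rises were Apoe, as above, Ch25h, which makes 25-hydroxycholesterol, at 2.33 (adjusted p = 0.000329), and Tspo, a sterol-binding protein of mitochondria, at 1.25 (adjusted p = 0.0207). The falls were Abcg4, a sterol exporter, at -0.93 (adjusted p = 0.0416), Osbpl1a, a sterol-binding protein of endosomes, at -1.26 (adjusted p = 0.0225), and Stard4, a cholesterol carrier, at -1.26 (adjusted p = 0.0171). That list had 2 rises and 0 falls without any 1 NTg array and 3 and 1 without SOD1 G93A replicate 3. The fatty acid list had 3 rises and 2 falls of 25 and a median of -0.71. Its rises were Lpl, as above, Plin2, a coat of lipid droplets, at 1.95 (adjusted p = 0.00186), and Fabp7, a fatty acid carrier of immature astrocytes, at 2.53 (adjusted p = 0.00177), and the falls numbered 1 without NTg replicate 1 and 0 without NTg replicate 2 or 3 or SOD1 G93A replicate 3. Cholesterol synthesis calls numbered 2 without SOD1 G93A replicate 3 and 2, 1 and 1 without NTg replicates 1, 2 and 3. Over the other settings falls ran from 2 to 9 for cholesterol synthesis, 0 to 5 for sterol regulation and 0 to 8 for fatty acids. Cyp51 lost its call without NTg replicate 2 or 3, Hmgcs1 without NTg replicate 1, 2 or 3 or SOD1 G93A replicate 1, 2 or 3 and in 10 other alternatives, and Msmo1 without NTg replicate 1, 2 or 3 or SOD1 G93A replicate 3 and in 6 other alternatives (highest adjusted p = 0.874). Hsd17b7 lost its call without NTg replicate 1, 2 or 3 or SOD1 G93A replicate 3 and in 7 other alternatives, Tspo without NTg replicate 1, 2 or 3 and with median centring, and Abcg4 without NTg replicate 1, 2 or 3 or SOD1 G93A replicate 1 or 3 and in 7 other alternatives (highest adjusted p = 0.546). Osbpl1a lost its call without NTg replicate 1, 2 or 3 or SOD1 G93A replicate 3 and in 3 other alternatives, and Stard4 without NTg replicate 1, 2 or 3 and with the replicate number as a block (highest adjusted p = 0.0947).

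A sterol regulatory element, searched as TCACNCCAC on both strands, was found in 1.24% of all windows and in 1.34% of tested genes with a window. Of 15 cholesterol synthesis genes with a window 1 held it (6.67%). That gene is Hmgcs1, whose window at chr13:119690101-119690350 of GRCm38.p6, plus strand, is shown with the element in capitals.
Hmgcs1: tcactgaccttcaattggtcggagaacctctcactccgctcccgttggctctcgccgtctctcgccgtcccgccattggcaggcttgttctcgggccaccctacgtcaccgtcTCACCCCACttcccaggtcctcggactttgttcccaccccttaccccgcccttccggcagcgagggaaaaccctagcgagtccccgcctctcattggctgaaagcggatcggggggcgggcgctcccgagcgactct
The match began 137 bases before the start. The known element of this pathway tolerates other letters, which this search did not allow.

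Most tested genes of cytosolic ribosomal proteins, the building blocks of the translation machinery, were higher. Of 41 tested 31 rose and 0 fell, with a median of 1.21, and 39 had positive log2 fold changes. Rpl41 read 264.1, 185.9 and 362.8 in NTg mice against 1204.0, 1466.5 and 1566.6 in SOD1 G93A mice (log2 fold change 2.46, standard error 0.30, adjusted p = 0.000551). Rps14 read 1084.9, 1422.1 and 1328.8 in NTg mice against 3453.3, 3749.9 and 5834.9 in SOD1 G93A mice (log2 fold change 1.65, standard error 0.23, adjusted p = 0.00157) and Rps28 2594.2, 3037.6 and 2678.9 in NTg mice against 7483.4, 7610.6 and 13161.7 in SOD1 G93A mice (log2 fold change 1.39, standard error 0.22, adjusted p = 0.00308). SOD1 G93A replicate 3 was the highest array for all 3 genes, and the other SOD1 G93A arrays were also above every NTg array. Without replicate 3 the count was 21 and the median 1.04, and without NTg replicate 2 or 3 it was 15, and it was 20 with median centring and 16 with the 120-day arrays fitted alone. Ribosomal protein genes have many near-identical processed copies, and probe sets can match several transcripts. An alternative chosen after seeing the data kept only probe sets with no letter mark before _at, called unshared in this report. It also drops marked probe sets that the platform table assigns to 1 gene, and not all 41 genes have an unmarked one. With it 7 ribosomal genes rose and the median was 0.69, so the values of single ribosomal genes are uncertain. The proteasome and the ubiquitin system, which mark and degrade proteins, had lower medians. Of 31 proteasome subunits 0 passed, with a median of -0.01, and of 60 ubiquitin conjugation and removal genes 0 rose and 5 fell (median -0.44). The 5 were Ube2n, Ube2a, Usp33, Wwp1 and Herc2, with log2 fold changes between -1.47 (Usp33) and -1.01 (Herc2). That count was 0 when NTg replicate 2, NTg replicate 3 or SOD1 G93A replicate 3 was left out, and 1 without NTg replicate 1. Across the other settings it ran from 0 to 25, with 14 for the values as deposited and 25 with median centring. Rpl41 lost its call with unshared probe sets only, Ube2n and Usp33 without NTg replicate 1, 2 or 3 or SOD1 G93A replicate 3 and with the 120-day arrays fitted alone, and Ube2a without NTg replicate 2 or 3 or SOD1 G93A replicate 3 and with the 120-day arrays fitted alone and with the replicate number as a block (highest adjusted p = 0.135). Wwp1 lost its call without NTg replicate 1, 2 or 3 or SOD1 G93A replicate 3 and in 3 other alternatives, and Herc2 without NTg replicate 1, 2 or 3 or SOD1 G93A replicate 1 or 3 and in 9 other alternatives (highest adjusted p = 0.400).

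Metal-binding and chaperone genes held a few large rises. Metallothioneins bind zinc and copper and rise in reactive astrocytes. Mt1 read 867.7, 1236.3 and 956.6 in NTg mice against 6864.3, 7811.4 and 5461.7 in SOD1 G93A mice (log2 fold change 2.65, standard error 0.27, adjusted p = 0.000153) and Mt2 827.3, 733.2 and 716.7 in NTg mice against 4434.3, 5290.3 and 4097.5 in SOD1 G93A mice (log2 fold change 2.59, standard error 0.25, adjusted p = 0.000118), both bright in NTg mice and higher on every SOD1 G93A array. Mt3, the neural form, rose by 1.54 (adjusted p = 0.0296). Gpx1, a glutathione peroxidase, rose by 1.68 (adjusted p = 0.00228). Of the 32 antioxidant and metal genes 5 rose and 0 fell (median 0.26, which was -0.07 with median centring, 0.33 above all genes). The rises numbered 3 without NTg replicate 1 or 3, 4 without SOD1 G93A replicate 3 and 3 to 6 over the other settings. Of 33 chaperones 3 rose and 1 fell (median -0.30), the rises being Hspb1, Cryab, a small heat shock protein of glia, at 1.40 (adjusted p = 0.00811), and Hspa1b, inducible HSP70, at 1.72 (adjusted p = 0.00864). Over the other settings chaperone rises ran from 0 to 3 and falls from 0 to 7. The metal response element was also searched, as TGCNCNC, and is not shown because 51.0% of all windows hold it. Endogenous Sod1 read 3957.5, 3313.4 and 3885.3 in NTg mice against 5194.8, 3860.9 and 3641.6 in SOD1 G93A mice, with overlapping groups and a log2 fold change of 0.04 (adjusted p = 0.929) that was -0.22 with median centring, where all genes had a median of -0.40. Whether its probe sets also read the human transgene was not tested. Mt1 lost its call with unshared probe sets only, Mt3 without NTg replicate 1 or 3 or SOD1 G93A replicate 3 and in 4 other alternatives, and Hspa1b with all probe sets of a gene averaged and with unshared probe sets only (highest adjusted p = 0.401).

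Neuronal markers had a negative median. Of 22 general neuronal markers 0 rose and 9 fell, with a median of -1.03. Nefm, a neurofilament chain of large axons, read 2636.2, 5193.3 and 4323.0 in NTg mice against 1607.5, 1302.5 and 1017.2 in SOD1 G93A mice (log2 fold change -1.68, standard error 0.34, adjusted p = 0.0124). Snap25, of the vesicle fusion machinery, read 3516.7, 4344.5 and 3531.1 in NTg mice against 1902.6, 1993.0 and 869.3 in SOD1 G93A mice (log2 fold change -1.43, standard error 0.35, adjusted p = 0.0277). Replicate 3 was the lowest SOD1 G93A array for both. The mean log2 signal of the list lay between 10.11 and 10.41 in NTg and between 9.26 and 9.61 in SOD1 G93A mice. Of 19 motor neuron markers 0 rose and 4 fell, with a median of -1.14, among them Mmp9, a protease of fast motor neurons, at -1.61 (adjusted p = 0.0293), and Slit2, a guidance protein, at -1.19 (adjusted p = 0.0163). Prph, peripherin, read 170.3, 239.6 and 544.3 in NTg mice against 244.3, 22.0 and 67.1 in SOD1 G93A mice, with overlapping groups and a log2 fold change of -1.94 (adjusted p = 0.0947). Chat, which makes acetylcholine, was dim on all arrays, at 42.5, 27.4 and 38.2 in NTg mice against 21.3, 17.9 and 55.6 in SOD1 G93A mice (adjusted p = 0.193). Without NTg replicate 2 the neuronal and motor neuron counts were 0, without NTg replicate 3 they were 1 and 0, and without SOD1 G93A replicate 3 each was 3. Across the other settings they ran from 2 to 13 and 2 to 7. Nefm and Slit2 lost their calls without NTg replicate 2 or 3, Snap25 without NTg replicate 1, 2 or 3 or SOD1 G93A replicate 3 and with dim probe sets kept and with the 120-day arrays fitted alone, and Mmp9 without NTg replicate 2 or 3 or SOD1 G93A replicate 2 and in 3 other alternatives (highest adjusted p = 0.134).

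Channels and transporters that set neuronal excitability had negative medians. Of 37 potassium channel genes 0 rose and 9 fell, with a median of -0.72, and 34 were negative. Kcna2, a channel of axons beside the nodes of Ranvier, read 4066.6, 4534.2 and 3804.2 in NTg mice against 1807.5, 1712.3 and 1202.4 in SOD1 G93A mice (log2 fold change -1.49, standard error 0.23, adjusted p = 0.00281). Kcnj3, a G protein-gated channel, read 184.0, 209.6 and 197.3 in NTg mice against 52.6, 67.1 and 37.6 in SOD1 G93A mice (log2 fold change -1.98, standard error 0.30, adjusted p = 0.00254). Kcns3, a modifier of delayed rectifier channels, read 87.4, 71.6 and 58.6 in NTg mice against 17.4, 14.8 and 10.6 in SOD1 G93A mice (log2 fold change -2.17, standard error 0.37, adjusted p = 0.00481). The groups did not overlap for any of the 3. Of 40 sodium, calcium and chloride channels and pumps 0 rose and 10 fell, with a median of -0.52. Slc12a5, the chloride extruder KCC2 of neurons on which fast inhibition rests, read 6463.3, 6894.1 and 6448.6 in NTg mice against 2913.8, 2413.7 and 1725.6 in SOD1 G93A mice (log2 fold change -1.75, standard error 0.23, adjusted p = 0.00112), with NTg mice within a narrow range. Ryr2, a calcium release channel, fell by 1.56 (adjusted p = 0.00497) and Atp2b3, a calcium pump of the plasma membrane, by 1.28 (adjusted p = 0.00841) on the log2 scale. The counts of 9 and 10 were 4 and 8 without SOD1 G93A replicate 3 and 3 and 4 without NTg replicate 2. The potassium channel count was 5 without NTg replicate 1 and 4 without NTg replicate 3, and ran from 4 to 18 over the other settings. Kcnj3 lost its call with all probe sets of a gene averaged (highest adjusted p = 0.0773).

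Synaptic genes had negative medians on both the inhibitory and the excitatory side. All 19 GABA and glycine synapse genes tested had negative log2 fold changes, where 44.8% of all genes were above 0. Of the 19 genes 5 fell, and the median was -0.98. Slc6a5, the glycine transporter of inhibitory terminals, read 995.2, 1244.7 and 1420.8 in NTg mice against 323.5, 367.2 and 118.3 in SOD1 G93A mice (log2 fold change -2.25, standard error 0.51, adjusted p = 0.0202). Gabra5, a GABA receptor subunit found outside synapses, read 202.4, 205.4 and 195.2 in NTg mice against 65.8, 53.2 and 55.3 in SOD1 G93A mice (log2 fold change -1.82, standard error 0.31, adjusted p = 0.00501), and it was nearly equal within each group. Gabra2 fell by 1.55 (adjusted p = 0.00743) and Gabrb2 by 1.72 (adjusted p = 0.0146) on the log2 scale. Slc32a1, which loads GABA and glycine into vesicles, gave a log2 fold change of -1.04 (adjusted p = 0.0801). Of 29 glutamate receptor and postsynaptic genes 0 rose and 5 fell (median -0.47), among them Gria3, an AMPA receptor subunit, at -1.56 (adjusted p = 0.0213). Of 37 synaptic vesicle and release genes 0 rose and 10 fell (median -0.57), and of 44 axonal cytoskeleton and transport genes 10 fell and 1 rose (median -0.46). Kif5c, a kinesin of axonal transport, read 4046.5, 4554.8 and 4306.0 in NTg mice against 2021.1, 1942.6 and 1281.5 in SOD1 G93A mice (log2 fold change -1.44, standard error 0.26, adjusted p = 0.00743), and the gene that rose was Stmn4 at 1.11 (adjusted p = 0.0425). Without NTg replicate 2 the vesicle list had 0 calls and the axonal list 1. Without NTg replicate 3 each had 1, and without SOD1 G93A replicate 3 they had 1 and 3, while without NTg replicate 1 the vesicle list had 6. The inhibitory count was 2 without NTg replicate 2 and 3 without SOD1 G93A replicate 3, and the glutamate count was 1, 0 and 0 without NTg replicates 1, 2 and 3 and 3 without SOD1 G93A replicate 3. Over the other settings falls ran from 3 to 11 (inhibitory), 0 to 10 (glutamate), 2 to 16 (vesicle) and 2 to 18 (axonal), lowest with the 120-day arrays fitted alone and highest with median centring. The values of the general neuronal markers are given above, and their part in these results was not tested. Slc6a5 lost its call without NTg replicate 2 or 3 or SOD1 G93A replicate 3, Gabra2 with all probe sets of a gene averaged, and Gabrb2 without NTg replicate 2 and with the 120-day arrays fitted alone and with all probe sets of a gene averaged (highest adjusted p = 0.124). Gria3 lost its call without NTg replicate 1, 2 or 3 and with the 120-day arrays fitted alone, and Stmn4 without NTg replicate 2 or 3 or SOD1 G93A replicate 1 or 3 and in 10 other alternatives (highest adjusted p = 0.182).

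**Figure D4:**
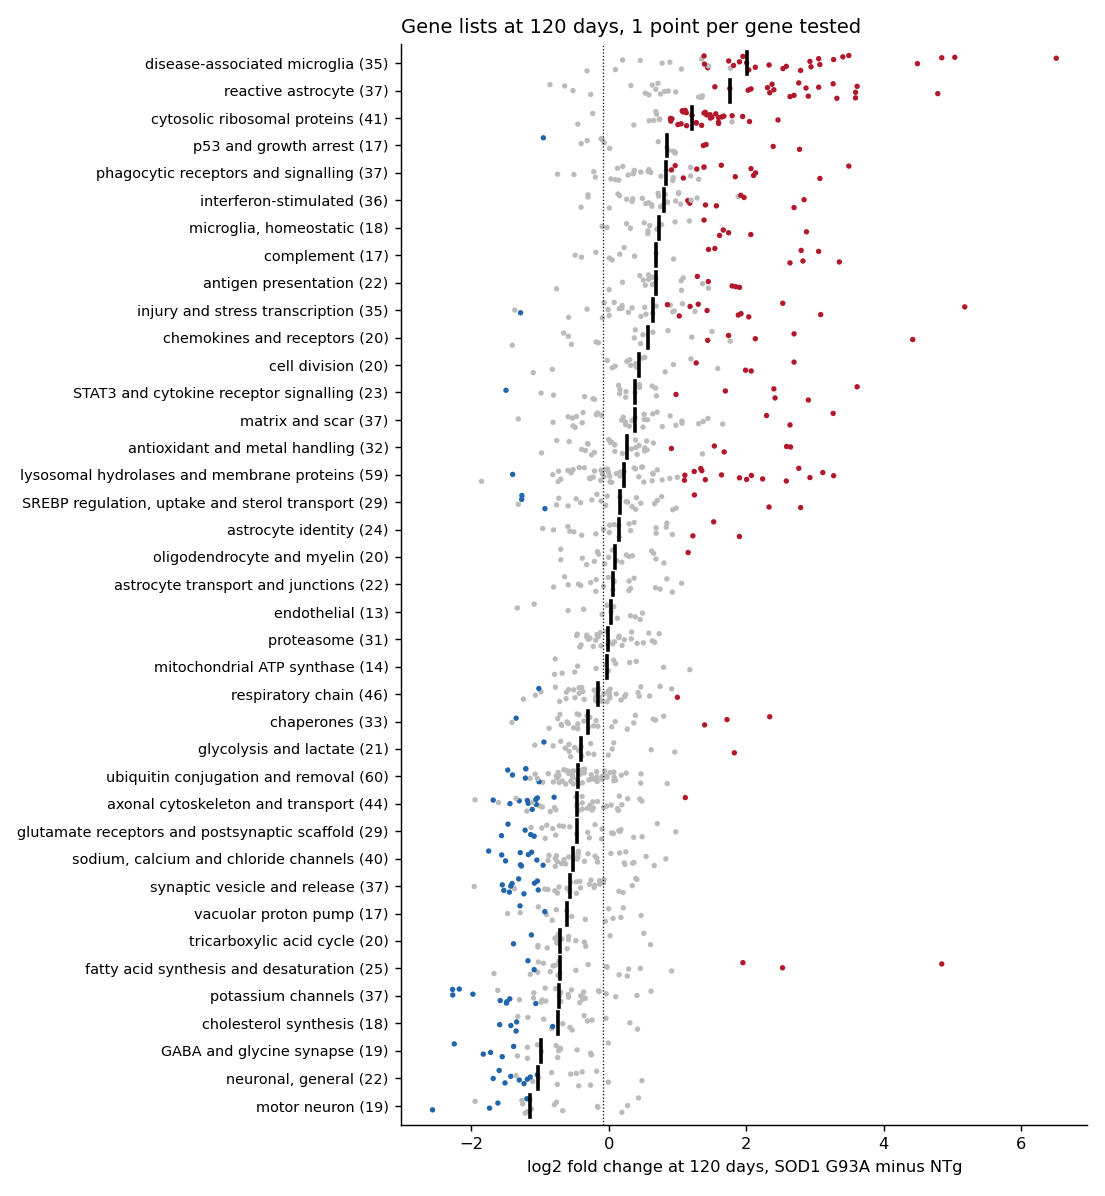
Log2 fold change at 120 days (SOD1 G93A minus NTg, horizontal axis) of every tested gene of each list, 1 point per gene, with the number tested after the name. Red and blue points passed the test, grey ones did not, black bars are list medians and the dotted line is the median of all genes, -0.08. Medians run from 2.01 (disease-associated microglia) to -1.14 (motor neuron).

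Few energy metabolism genes passed the test. Of 46 respiratory chain genes 1 rose and 1 fell (median -0.16), and of 14 ATP synthase subunits 0 passed (median -0.02). Tricarboxylic acid cycle genes had a median of -0.71, with 2 falls of 20, Idh3a and Sucla2, at -1.39 (adjusted p = 0.0351) and -1.12 (adjusted p = 0.0423), and 17 negative log2 fold changes. Of 21 glycolysis and lactate genes 1 rose and 1 fell (median -0.40). Hk2, the inducible hexokinase, read 41.4, 43.6 and 47.3 in NTg mice against 155.7, 202.4 and 207.3 in SOD1 G93A mice (log2 fold change 1.83, standard error 0.26, adjusted p = 0.00155), and the groups were far apart. Slc2a3, the neuronal glucose transporter, fell by 0.94 on the log2 scale (adjusted p = 0.0442). The cycle count was 0 without SOD1 G93A replicate 3 or any 1 NTg array, 5 without SOD1 G93A replicate 1 and 1 without SOD1 G93A replicate 2. The respiratory chain count was 0 without SOD1 G93A replicate 3 or any 1 NTg array. Across the other settings falls ran from 0 to 11 for the cycle, 0 to 5 for the respiratory chain and 0 to 4 for glycolysis, highest with median centring. Idh3a lost its call without NTg replicate 1, 2 or 3 or SOD1 G93A replicate 3 and in 4 other alternatives, and Sucla2 and Slc2a3 without NTg replicate 1, 2 or 3 or SOD1 G93A replicate 2 or 3 and in 8 other alternatives (highest adjusted p = 0.167).

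Matrix genes included one of the largest rises. Fmod, fibromodulin, a small proteoglycan that binds collagen fibrils, read 137.3, 160.0 and 171.4 in NTg mice against 1637.9, 2033.9 and 2918.5 in SOD1 G93A mice (log2 fold change 3.67, standard error 0.66, adjusted p = 0.00653), and all 6 of its tested probe sets rose. It rose on all 3 SOD1 G93A arrays, unlike Col1a1 and Col1a2, which were high on replicate 3 alone and did not pass the test (adjusted p = 0.290 and adjusted p = 0.303). Of 12 fibroblast and meningeal markers 2 rose, Fmod and Serping1, and the list's median of 1.03 was 0.20 without that array. Their mean log2 signal lay between 6.33 and 6.56 in NTg and between 6.97 and 8.22 in SOD1 G93A mice. Of 37 matrix and scar genes 3 rose and 0 fell (median 0.38), with rises from 2 to 5 and falls from 0 to 3 over the other settings. Timp1, an inhibitor of metalloproteinases, read 15.2, 11.1 and 9.2 in NTg mice against 204.0, 202.4 and 186.6 in SOD1 G93A mice (log2 fold change 3.27, standard error 0.38, adjusted p = 0.000447), and Mmp2, a gelatinase, read 78.0, 31.3 and 21.1 in NTg mice against 180.6, 246.0 and 281.8 in SOD1 G93A mice (log2 fold change 2.30, standard error 0.41, adjusted p = 0.00629). Both rose on every array of SOD1 G93A mice. Cd44, a hyaluronan receptor, rose by 2.64 (adjusted p = 0.0139). Endothelial (13 tested), pericyte (10) and oligodendrocyte precursor (9) markers had 0 calls, and of 20 oligodendrocyte markers 1 rose, Opalin, at 1.16 (adjusted p = 0.0438). Mmp2 lost its call with unshared probe sets only, Cd44 without NTg replicate 3 and with the 120-day arrays fitted alone, and Opalin without NTg replicate 1, 2 or 3 or SOD1 G93A replicate 1, 2 or 3 and in 10 other alternatives (highest adjusted p = 0.326).

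At 90 days 36 of the same 26132 probe sets passed (0.138%). Of the 514 genes that rose at 120 days 467 (90.9%) had log2 fold changes above 0 at 90 days, where 52.7% of all genes did, and of the 555 that fell 461 (83.1%) were below 0 at 90 days, where 47.3% of all genes were. The 2 ages have mice of their own in both genotypes. Called at both ages were 22 genes that rose, 95.7% of the 23 that rose at 90 days (0.185% of all genes) and 4.28% of those at 120 days, and 4 that fell, Chodl, Rspo2, Mctp1 and Pde6b, 80% of the 5 that fell at 90 days (0.0401% of all genes) and 0.721% of those at 120 days. The 22 include genes known from phagocytes, such as Cst7 (3.59 at 90 days), Lyz1 (3.00) and C1qa (2.22), with Socs3 (2.63), Timp1 (3.26) and Atf3 (2.14). The other 2 genes called at 90 days were Cd109 and Syndig1l, which did not pass at 120 days. Mctp1 lost its call without NTg replicate 1, 2 or 3 or SOD1 G93A replicate 1, 2 or 3 and in 9 other alternatives (highest adjusted p = 0.165). No probe set passed the test of the difference between the stages in limma (smallest adjusted p = 0.192), with 2414 at an unadjusted p under 0.05 (9.24%). The number that passed was 3 with an offset at the 50th percentile, 20 with a trended and robust prior and 11 without NTg replicate 2 of 90 days.

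The genes named here from those with the smallest p in that test had log2 fold changes at 90 days no further from 0 than 0.73. Ranking by the difference favours genes with a small change at 90 days beside a large one at 120 days. Sox4, a transcription factor of immature neural cells, had log2 fold changes of 0.73 at 90 days and 3.06 at 120 days, a difference of 2.33 (adjusted p = 0.192 for the difference). Cdkn1a went from -0.13 to 2.78 (adjusted p = 0.192 for the difference), Baz1a, a chromatin remodelling subunit, from 0.40 to 3.40 (adjusted p = 0.192 for the difference), Hbegf, a growth factor of the EGF family, from 0.52 to 2.37 (adjusted p = 0.192 for the difference) and Igfbp3 from -0.17 to 2.54 (adjusted p = 0.194 for the difference). In the other direction Adgrl3, an adhesion receptor of synapses, went from 0.01 to -2.18 (adjusted p = 0.192 for the difference), Sgsm3 from -0.06 to -2.86 (adjusted p = 0.192 for the difference) and Slc12a5 from -0.12 to -1.75 (adjusted p = 0.212 for the difference). None of these differences passed, although all 8 genes passed at 120 days and none at 90 days. Fmod, at -0.40 and 3.67, had a difference of 4.07 (adjusted p = 0.262 for the difference). Adgrl3 lost its call with unshared probe sets only (highest adjusted p = 0.143).

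**Figure D5:**
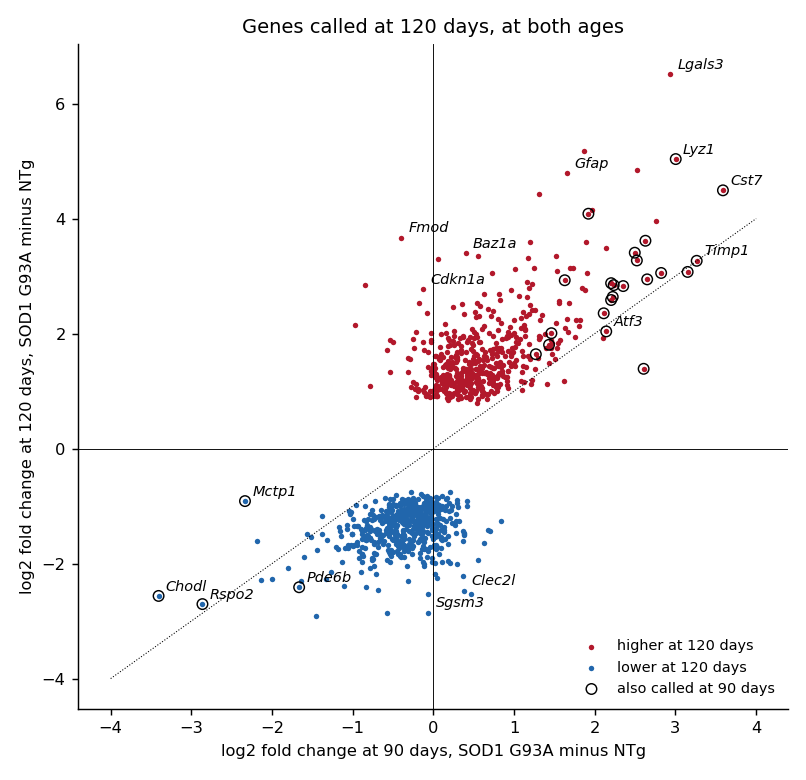
Log2 fold change at 120 days (vertical axis) against that at 90 days (horizontal axis), SOD1 G93A minus NTg at each age, for the genes called at 120 days, red where higher and blue where lower. Circled points, 22 higher and 4 lower, were also called at 90 days, and the dotted line marks equal values.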

How the data were processed

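RNA of laser-captured astrocytes was hybridised to 1 array per mouse, 3 mice in each of 4 groups. Values were deposited by the authors as linear intensity, and the submitters' processing notes name MAS5. The authors' scanner images were not used here. Of 45101 probe sets the platform table names 1 gene for 34958, several for 932 and none for 9211, and genes were named only from the first kind.

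Before the logarithm 7 was added to each signal (the 20th percentile), so log2 values come from the deposited intensity. Arrays were quantile normalized within each age, 64 control probe sets were left out, and probe sets above the median of their array on at least 3 arrays were tested (26132). Group means of all 12 arrays were fitted in limma 3.58.1 (R 4.3.3) with 8 residual degrees of freedom, empirical Bayes moderation and Benjamini-Hochberg adjustment over all probe sets tested, at 0.05. The brightest probe set stood for a gene. Promoter windows were those of RefSeq on GRCm38.p6, matched by symbol for 10063 of 12458 genes. Figures were drawn with matplotlib 3.10.9.

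The 15 largest rises and falls among genes with groups apart, the members with the smallest p in each list, at most 5, 8 genes in each direction by the test between stages, and genes the study names were open to be named. Abcg4, Aqp4, Cd109, Cebpb, Chat, Dnajb9, Gpnmb, Ids, Lifr, Mctp1, P2ry12, Prph, Slc32a1, Stat3, Stmn4, Syndig1l, Tmem119, Trem2, Vim and Zmat3 fall outside this rule and were chosen after their values were seen. Members and gene lists were chosen with earlier results of these data known. With 3 arrays per group the number of arrays limits the precision.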

Additional observations from a re-analysis of the deposited data

Results flagged for a closer look

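Slc2a3, the neuronal glucose transporter, differed between the ages in the direction of its groups: the 3 SOD1 G93A arrays lay above all NTg arrays at 90 days and below them at 120 days. Its log2 fold change was 0.30 at 90 days and -0.94 at 120 days, a difference of -1.24 (limma, adjusted p = 0.402 for the difference), which did not pass the test.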

How the results depend on the processing

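Against 1948 probe sets passing at 120 days, 3500 passed with median centring (2834 lower), 2953 with an offset at the 50th percentile (1648 lower), 1244 without the filter on low values (532 lower), 759 with the 120-day arrays fitted alone (466 higher and 293 lower) and 1155 with unshared probe sets, an alternative chosen after seeing the data (443 higher). Leaving out 1 array gave 467 to 2424 in all, 360 to 1017 higher and 107 to 1433 lower. The number of probe sets at 2-fold and unadjusted p at 120 days was 1618 with the offset at the 50th percentile and 1942 with the filter at the 75th percentile. The test between stages passed 3 probe sets with that offset, 20 with a trended and robust prior and 0 to 11 with 1 array left out. Distinct genes passing in the gene lists numbered 240, 133 with the 120-day arrays alone and 105 to 253 with 1 array left out. The labels do not say whether replicate numbers pair the mice. Deviations of same-numbered arrays correlated at -0.07, 0.04 and -0.01 at 120 days and at -0.27, 0.28 and -0.28 at 90 days. With 3 arrays per group these values cannot exclude a shared litter or handling. With the replicate number as a block 1063 probe sets passed, 583 higher and 480 lower.

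Of 136 named genes that passed, 79 passed under each of the alternatives that tested their probe set (23 to 25 of them) and 57 lost the call in 1 or more. Msmo1 turned from -1.34 to 0.11 with unshared probe sets. Among genes that did not pass, Gja1 turned to -0.27 with unshared probe sets. Slc1a2 was -0.18 with median centring, which moved the median of all genes to -0.40, and turned to -0.14 with all probe sets of a gene averaged, and ran from -0.12 to 0.19 with 1 array left out. Sod1 was -0.22 with median centring and ran from -0.0799 to 0.17 with 1 array left out. The causes were not tested. Dim genes sit near the offset, which pulls their fold changes toward 0, and their true size is uncertain. With 3 mice per group there is a limit to what differences between stages can be seen.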
